A study of Mus musculus with 6 samples.

Results

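RGS proteins switch off signals from G protein-coupled receptors, and the results below follow 8 RGS genes through bulk RNA sequencing of mouse liver CD8+ T cells, which are cytotoxic lymphocytes. The genes are Rgs1, Rgs2, Rgs3, Rgs10, Rgs14, Rgs16, Rgs18 and Rgs19, taken by symbol, and each had exactly 1 row among the 54532 genes of the deposited count table. The study held 3 CUMS libraries and 3 control libraries. The labels do not spell CUMS out, and the series text sets the study in chronic stress. The labels give the controls as wild type, write CUMS in the genotype field of the other group, and name no strain, age, sex or length of exposure. All 6 libraries were prepared the same way, with TRIzol extraction and random priming of fragmented mRNA. The labels do not state whether each library is its own animal. The p-values therefore rest on library-to-library spread, part of which may be technical.

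As background, a receptor loads a G protein alpha subunit with GTP, and the RGS domain speeds up hydrolysis of that GTP, which ends the signal. In lymphocytes this shortens responses to chemokines and to sphingosine 1-phosphate, whose receptors act through Gi proteins and steer migration. RGS genes fall into subfamilies by sequence. The R4 subfamily, with Rgs1, Rgs2, Rgs3, Rgs16 and Rgs18 among its members, mostly holds short proteins with little beyond the RGS domain, and several are induced quickly by receptor signals. Rgs10 and Rgs14 belong to the R12 subfamily and Rgs19 to the RZ subfamily.

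Total counts were 14902248 to 18012387 in the CUMS libraries and 17642478 to 18023206 in the controls. CUMS replicates 2 and 3 had fewer genes detected, with no read for 819 and 948 of the 14054 genes tested, against 26 in CUMS replicate 1 and 26 to 128 in the controls. The T cell genes Cd3d, Cd3e, Cd3g, Cd8a and Cd8b1 were read in every library. With Trac, Trbc2, Cd2 and Lck they form the 9 CD8 T cell markers, of which only Cd8a and Cd8b1 encode CD8 itself. The 9 summed to 5086 to 5576 CPM (reads relative to the TMM-adjusted library total) in CUMS and 4320 to 4667 CPM in control. All 9 had positive log2 fold changes (median 0.16), 4 at an unadjusted p under 0.05 by edgeR, as were 2147 of all 14054 genes tested. Of the 9, Cd8a alone was called, as higher (log2 fold change 0.56 ± 0.095 SE, edgeR adjusted p = 0.0225). Other cell types were also present: 15 monocyte and neutrophil markers summed to 2717 to 3056 CPM in CUMS and 3966 to 6100 CPM in control, and 6 CD4 T cell markers to 169 to 182 CPM in CUMS and 383 to 432 CPM in control. Control replicate 2 had the highest monocyte and neutrophil sum. Kupffer cell markers summed to 9.997 to 14.9 CPM in CUMS and 20.2 to 27.2 CPM in control, NK cell markers to 23.7 to 28.6 CPM in CUMS and 37.4 to 47.1 CPM in control, and B cell markers to 109 to 137 CPM in CUMS and 117 to 132 CPM in control. Hepatocyte markers went the other way, summing to 11.1 to 20.5 CPM in CUMS and 7.28 to 9.97 CPM in control, with positive log2 fold changes in all 4 that could be tested (median 1.10), none past the threshold by edgeR, limma voom or DESeq2 and, by edgeR, 1 at an unadjusted p under 0.05.

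Of the 8 RGS genes, Rgs2 fell in CUMS, none rose, and 7 did not pass. The test was edgeR's quasi-likelihood test with Benjamini-Hochberg adjustment over all 14054 genes at a threshold of 0.05, at which 1.31% of all genes were called, 0.946% as lower in CUMS and 0.363% as higher. All 8 genes passed the filter on low counts. The CUMS and control values did not overlap for 3 of the 8, Rgs1, Rgs2 and Rgs3, each lower in CUMS, where 11.9% of all genes tested were lower without overlap and 10.8% higher. The median log2 fold change (CUMS over control) was -0.37 over the 8 genes, with 6 negative and 2 positive, and -0.0051 over all genes tested. In bulk libraries, fewer cells of a type and less RNA per cell cannot be told apart.

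**Figure D1:**
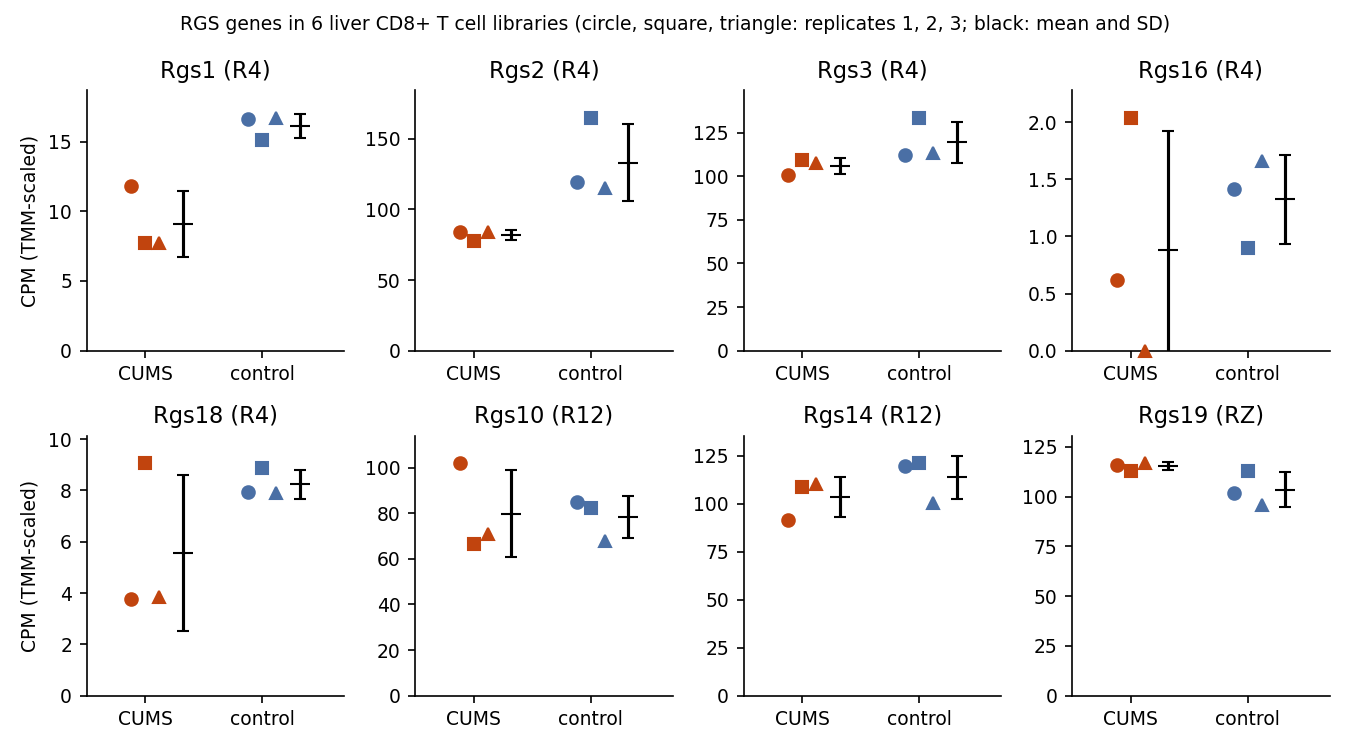
CPM of the 8 RGS genes in each library (y axis, linear, from 0), CUMS to the left of control, with circles, squares and triangles for replicates 1, 2 and 3 and the mean and SD in black. Rgs1 and Rgs2 are lower in every CUMS library than in any control, Rgs18 is low in CUMS replicates 1 and 3 only, and Rgs10, Rgs14 and Rgs19 overlap between groups; the SD bar of Rgs16 in CUMS is cut at 0.

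Rgs2, whose protein acts with a preference for Gq, was the member past the threshold. It had 84.1, 77.6 and 83.7 CPM in CUMS replicates 1, 2 and 3, and 119.3, 164 and 115 CPM in control replicates 1, 2 and 3. The 3 CUMS libraries lay close together and below every control, while control replicate 2 stood well above the other controls. The means were 81.8 ± 3.63 CPM in CUMS and 133 ± 27.3 CPM in control (SD, n = 3 each). Rgs2 was 1.63-fold lower in CUMS (log2 fold change -0.70 ± 0.15 SE, 95% interval -1.02 to -0.38, edgeR adjusted p = 0.0423). It lies on the minus strand of mm10 chromosome 1 at 143999338 to 144004161 (ENSMUSG00000026360), and no other gene of the deposited table overlaps it.

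The call of Rgs2 rested on having all 6 libraries. Shares of all genes called are over the genes with an adjusted p in each fit. With DESeq2 the share was 4.89%, over 12733 genes. It was 2.93% with no filter, over 24044 genes, and 2.88% with a stricter filter, over 10976 genes. It was 1.32% with median-of-ratios size factors, 1.22% with library size alone, 3.54% with limma voom and 0.505% with the replicate block. It was 0.621%, 0.061% and 1.2% without CUMS replicates 1, 2 and 3 in turn, 0.418%, 0.128% and 0.312% without control replicates 1, 2 and 3 in turn, 0.0439% when CUMS replicates 2 and 3 were both left out, and 0% with the marker covariate. The fold change kept its sign when any single library was left out, at -0.81 to -0.52 on the log2 scale, but the edgeR adjusted p was then 0.0639 to 0.222. The smallest difference came without control replicate 2. With CUMS replicate 1 alone against the controls the log2 fold change was -0.67 ± 0.22, where the spread comes from the controls only and the lone library is assumed to vary like them. DESeq2 gave -0.70 (DESeq2 adjusted p = 0.000664) and limma voom with sample weights -0.72 (limma adjusted p = 0.0252). Of the 6 settings that kept all libraries and added no model term, only library size without TMM factors missed the threshold (edgeR adjusted p = 0.0519).

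Rgs2 ranked the 6 libraries in the same order as the mean log2 level of the monocyte and neutrophil markers did. By summed CPM the order differed, as the marker sum was lowest in CUMS replicate 3 (2717 CPM, against 2757 CPM in CUMS replicate 2). Part of the shared order rests on differences within counting noise. Rgs2 had 84.1 and 83.7 CPM in CUMS replicates 1 and 3, and 119.3 and 115 CPM in control replicates 1 and 3. The mean marker level over 15 genes was 6.29, 6.16 and 6.24 log2 CPM in CUMS replicates 1, 2 and 3. It was 6.95, 7.52 and 6.92 log2 CPM in control replicates 1, 2 and 3, so control replicate 2 was the highest here too. Of the 15 markers, 14 were negative and 5 fell, among them S100a9, a calcium-binding protein abundant in neutrophils, with 591 ± 156 CPM in CUMS and 1209 ± 335 CPM in control, and no marker was at 0 in any library. The number of these markers called lower was 14 with no filter, 10 with the stricter filter, 11 with DESeq2 and 10 with limma voom. It was 2, 0 and 5 without CUMS replicates 1, 2 and 3 in turn, and 3, 1 and 1 without control replicates 1, 2 and 3 in turn. Taken against this level within each library, Rgs2 was at 0.10, 0.12 and 0.15 on the log2 scale in CUMS and at -0.052, -0.15 and -0.069 in control. Taken against the mean of the 9 CD8 T cell markers, it was at -2.70, -2.67 and -2.61 in CUMS and at -1.99, -1.42 and -1.94 in control. Taken against the 6 CD4 T cell markers, of which 4 fell, it was at 2.33 ± 0.14 in CUMS and 1.75 ± 0.28 in control (SD, n = 3 each). Rgs2 was thus higher in CUMS relative to the monocyte and neutrophil markers and to the CD4 T cell markers, and lower relative to the CD8 T cell markers. The marker lists themselves differed between groups, and every other member except Rgs16 had the same signs. The differences, CUMS minus control, were 0.22, 0.58 and -0.88 for Rgs2 in that order. For Rgs19 they were 1.06, 1.42 and -0.039, so these signs are not particular to Rgs2. In a fit with the monocyte and neutrophil level as an added term, the log2 fold change of Rgs2 was 0.077 ± 0.29 (edgeR adjusted p = 0.9997). The groups did not overlap in the marker level, so group and marker level cannot be told apart by such a fit.

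**Figure D2:**
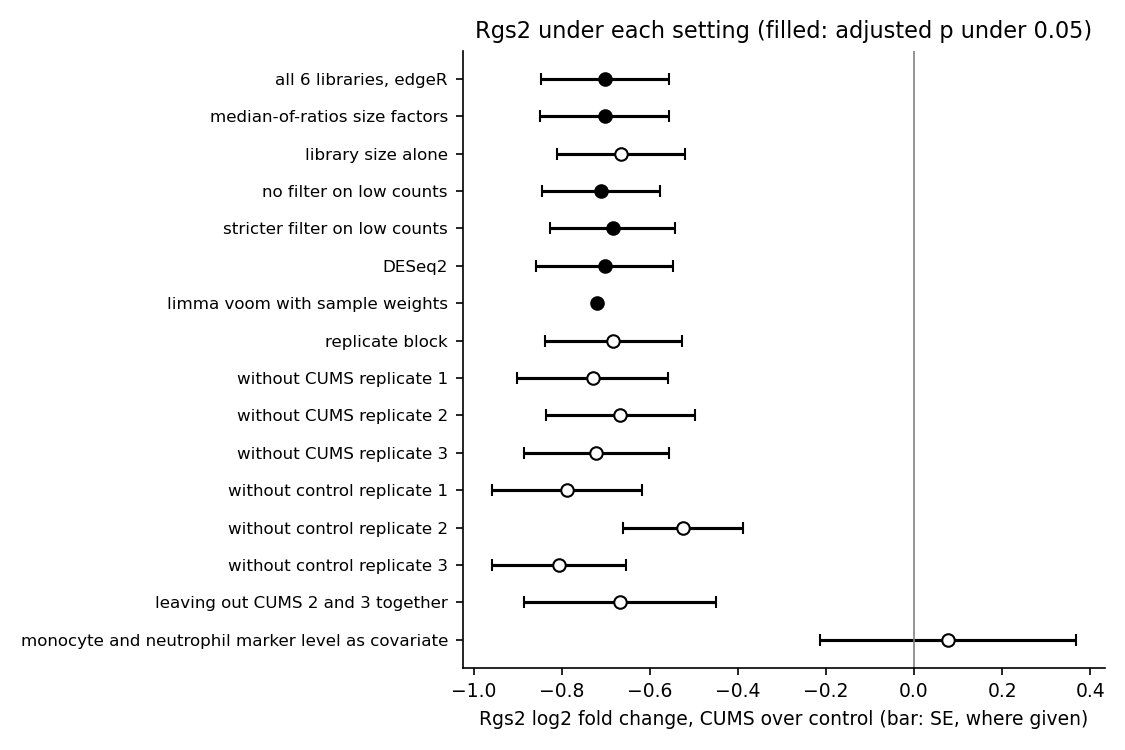
Log2 fold change of Rgs2, CUMS over control (x axis), under each setting (y axis), with bars for the SE where the method gave one and filled points for an adjusted p under 0.05. The values lie between -0.81 and -0.52 except in the fit that adds the myeloid marker level, where it is 0.077.

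The 5 genes whose profile over the 6 libraries lay nearest to that of Rgs2 were Tmem154, Nudt4, Anxa1, Fos and Msrb1. Likeness was the root mean square difference of log2 CPM after each gene was centred on its own mean over the 6 libraries, among 8836 other tested genes with a mean of at least 10 CPM, and it was 0.053 to 0.069 for these 5. Anxa1 encodes annexin A1, a phospholipid-binding protein abundant in myeloid cells, and Fos a subunit of the AP-1 transcription factor. Fos had 181, 186 and 185 CPM in CUMS and 276, 402 and 269 CPM in control, and it was the only 1 of the 5 past the threshold (log2 fold change -0.78 ± 0.15, edgeR adjusted p = 0.0316). Anxa1 had 55.8, 52.5 and 62.3 CPM in CUMS and 83.4, 117 and 77.5 CPM in control (edgeR adjusted p = 0.0609). All 5 shared with Rgs2 a flat CUMS group and a peak in control replicate 2, which follows from how they were picked.

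**Figure D3:**
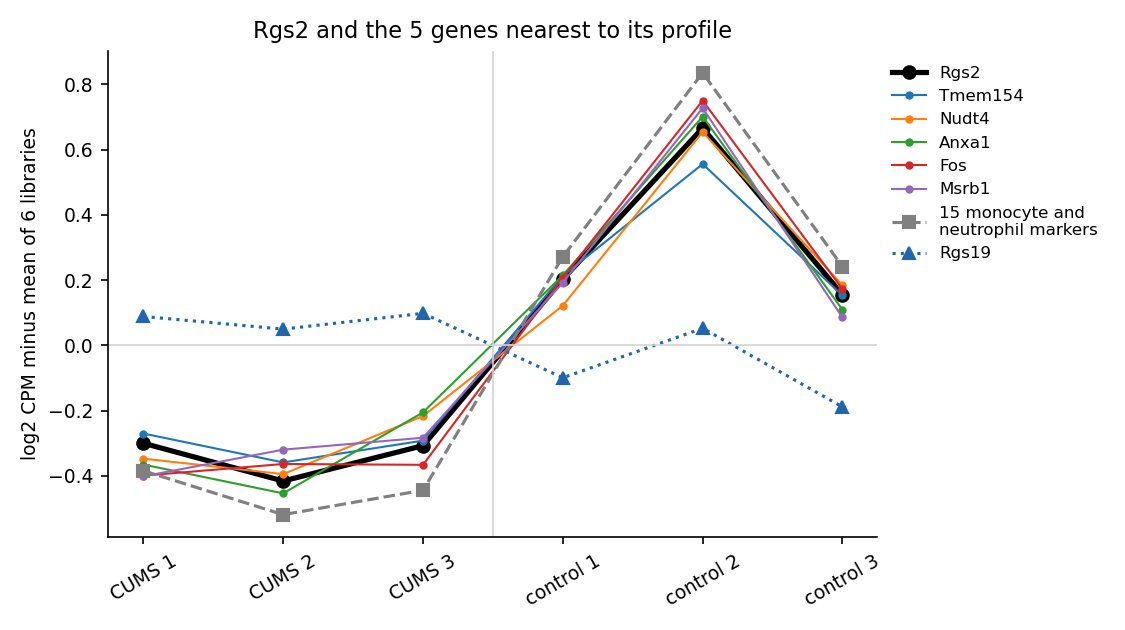
Log2 CPM minus each gene's own mean over 6 libraries (y axis) by library (x axis, CUMS then control) for Rgs2, the 5 genes nearest to it, Rgs19, and the mean of 15 monocyte and neutrophil markers. Rgs2, its 5 neighbours and the markers are all below 0 in CUMS and peak in control replicate 2, while Rgs19 stays near 0.

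The promoter of Rgs2 is shown because its transcript is known to be induced by cyclic AMP. That of Rgs19 is shown because Rgs19 did not pass and had the highest mean level per transcript length of the 8. Rgs10 was not separated from it on that scale, and Rgs3 had a higher mean CPM. RefSeq windows (build GRCm38.p6, 250 bases before to 50 after the start) existed for 5 of the 8 genes, and Rgs19 had 3, of which the second is printed. Capitals mark the half-site of the cyclic AMP response element, TGACG on either strand. Both windows are on the minus strand and are read 5′ to 3′ along the gene, at chr1:144004100-144004399 for Rgs2 and chr2:181693761-181694060 for Rgs19.
Rgs2: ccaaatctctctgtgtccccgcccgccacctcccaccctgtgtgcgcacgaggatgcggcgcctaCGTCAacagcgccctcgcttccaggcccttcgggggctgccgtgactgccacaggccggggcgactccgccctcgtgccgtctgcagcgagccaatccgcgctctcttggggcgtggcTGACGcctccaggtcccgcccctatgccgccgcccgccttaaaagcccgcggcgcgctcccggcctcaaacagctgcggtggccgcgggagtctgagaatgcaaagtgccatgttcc
Rgs19: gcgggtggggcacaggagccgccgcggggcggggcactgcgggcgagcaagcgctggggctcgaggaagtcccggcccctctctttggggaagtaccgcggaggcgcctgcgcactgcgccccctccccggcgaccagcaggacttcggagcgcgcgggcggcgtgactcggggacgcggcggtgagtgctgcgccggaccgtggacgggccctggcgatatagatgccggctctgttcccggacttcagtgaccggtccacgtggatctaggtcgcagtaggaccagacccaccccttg
The Rgs2 window held 2 half-sites, 185 bases before the start on the reverse strand and 67 before it on the forward strand, and a CCAAT box 94 bases before it. A half-site was present in 20.8% of all 32851 RefSeq windows of this length, and 2 or more in 5.01%. A CCAAT box was present in 37.4%, and the Rgs16 window also held 1. The full element TGACGTCA, present in 1.79% of windows, and the AP-1 motif TGANTCA, present in 7.81%, were searched on both strands and not found in the windows of Rgs2, Rgs3, Rgs10, Rgs16 or Rgs19. The windows of Rgs3, Rgs10, Rgs16 and Rgs19 held no TGACG half-site. The half-site of the glucocorticoid response element, AGAACA, present in 19.0% of windows, was also searched on both strands. It was found in the Rgs3 windows and the first Rgs19 window, but not in the Rgs2 window or the printed Rgs19 window. These are matches of letters and say nothing about binding.

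Rgs1, which restrains chemokine responses and is abundant in activated and tissue-resident lymphocytes, had the lowest fold change of the 8 and did not pass. It had 11.9, 7.76 and 7.72 CPM in CUMS and 16.6, 15.1 and 16.7 CPM in control. All CUMS libraries were below all controls, and CUMS replicate 1 lay between the other CUMS libraries and the controls. The log2 fold change was -0.82 ± 0.24 (95% interval -1.36 to -0.29, edgeR adjusted p = 0.13), from 211, 126 and 117 reads in CUMS and 293, 269 and 291 reads in control. Without CUMS replicate 1 it was -1.07 (edgeR adjusted p = 0.0708), and with CUMS replicate 1 alone against the controls it was -0.45. With the monocyte and neutrophil level as a covariate it was -0.87 ± 0.66, close to its value without that term but with a wide error, and no gene passed in that fit. Relative to the monocyte and neutrophil markers within each library, Rgs1 was at -3.05 ± 0.30 in CUMS and -3.11 ± 0.41 in control on the log2 scale, a difference of 0.055. Rgs1 was lower relative to the CD8 T cell markers, at -5.84 ± 0.28 in CUMS and -4.80 ± 0.067 in control on the log2 scale. Relative to the 6 CD4 T cell markers, which include the regulatory T cell factor Foxp3, it was at -0.85 ± 0.35 in CUMS and -1.26 ± 0.087 in control (SD, n = 3 each).

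Rgs18, known from platelets, megakaryocytes and myeloid cells, split the CUMS group. It had 3.76, 9.05 and 3.83 CPM in CUMS replicates 1, 2 and 3, and 7.93, 8.88 and 7.91 CPM in the controls. CUMS replicate 2 was above every control, and the other CUMS libraries were below every control. The log2 fold change was -0.57 ± 0.38 (edgeR adjusted p = 0.543), and it was -1.12 without CUMS replicate 2 (edgeR adjusted p = 0.159). Of 8 megakaryocyte and platelet markers, 2 could be tested, and the list summed to 9.66 to 16.7 CPM in CUMS and 7.28 to 11.2 CPM in control. The platelet factor genes Pf4 and Ppbp averaged 0.0749 and 0.61 CPM in CUMS and 0.281 and 1.22 CPM in control, and were too low to test. The testable markers, the platelet receptor genes Itga2b and Gp1ba, were instead higher in every CUMS library than in any control, as were 10.8% of all genes tested. Neither passed, with log2 fold changes of 0.51 and 1.79 (edgeR adjusted p = 0.514 and 0.174). The median was 1.15 over these 2, but -0.85 over all 8 markers in the fit with no filter. The list therefore gave no 1 direction. CUMS replicate 2 had 16.7 CPM of the 8 megakaryocyte and platelet markers. It also had the lowest mean log2 level of the monocyte and neutrophil markers, though CUMS replicate 3 had their lowest summed CPM. The part of these markers in the Rgs18 value was not tested.

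Rgs3, an R4 member with a long N-terminal extension, was lower in each CUMS library than in any control, but by little. It had 101, 109.6 and 107 CPM in CUMS and 112, 133 and 113 CPM in control, with control replicate 2 again the highest. The log2 fold change was -0.18 ± 0.12 (95% interval -0.43 to 0.076, edgeR adjusted p = 0.53). Rgs16, induced in activated T cells, was barely read: 11, 33 and 0 reads in CUMS replicates 1, 2 and 3, and 25, 16 and 29 reads in the controls. A count of 0 allows up to 3 reads, which is 0.198 CPM in CUMS replicate 3. CUMS replicate 2 had the highest level of all and CUMS replicate 3 the lowest, and the 95% interval of the log2 fold change, -3.30 to 2.14, allowed a large change either way (edgeR adjusted p = 0.89). Rgs16 shares 236 exonic bases with the opposite-strand gene Gm28513, which had 3 reads in all.

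The 3 members outside the R4 subfamily overlapped between groups. Rgs19, also called GAIP, acts on Gi proteins and had 116, 113 and 117 CPM in CUMS and 102, 113 and 95.6 CPM in control. Its CUMS values were tight at 115 ± 2.03 CPM, control values were 103 ± 8.82 CPM, and the log2 fold change was 0.15 ± 0.11 (95% interval -0.090 to 0.40, edgeR adjusted p = 0.581). Rgs10, which acts on Gi proteins and is abundant in leukocytes, had 102, 66.7 and 71.0 CPM in CUMS and 84.9, 82.4 and 67.9 CPM in control. CUMS replicate 1 was the highest library and CUMS replicate 2 the lowest, and the log2 fold change was 0.027 ± 0.17 (95% interval -0.34 to 0.40, edgeR adjusted p = 0.967). Its sign turned in 3 of 15 alternative settings. Rgs14, a scaffold that also binds Gi alpha subunits through a GoLoco motif, had 91.6, 109 and 110.4 CPM in CUMS and 119.5, 121 and 101 CPM in control (log2 fold change -0.13 ± 0.13, edgeR adjusted p = 0.685).

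**Figure D4:**
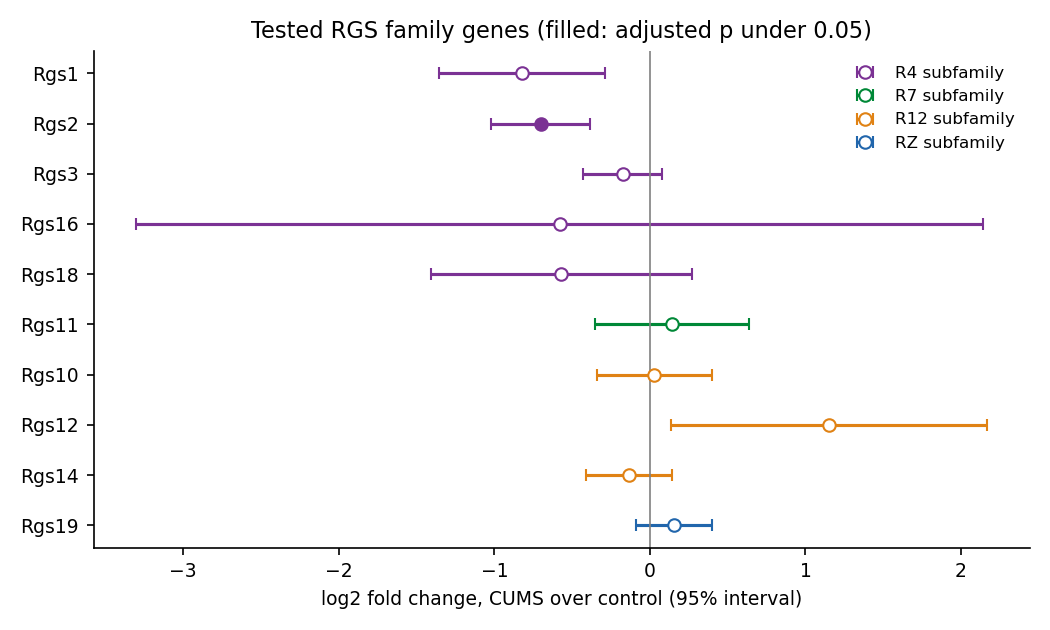
Log2 fold change, CUMS over control, with its 95% interval (x axis) for the 10 RGS family genes that could be tested (y axis), coloured by subfamily and filled where the adjusted p was under 0.05. All 5 R4 genes have negative values (Rgs2 and Rgs3 turn positive with the monocyte and neutrophil covariate), Rgs2 alone is filled, and Rgs16 has an interval from -3.30 to 2.14.

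By subfamily, all 5 tested R4 genes had negative log2 fold changes, from -0.82 to -0.18, though only Rgs2 passed. The tested genes of the other subfamilies had 1 negative value, Rgs14, and 4 positive ones. With the monocyte and neutrophil covariate Rgs2 and Rgs3 turned positive, at 0.077 and 0.15, and so did Rgs14, at 0.028. Among the 13 RGS genes outside the 8, Rgs11 and Rgs12 could be tested. Rgs12, an R12 member with additional signalling domains, had 4.21, 5.11 and 12.3 CPM in CUMS and 3.11, 3.94 and 2.64 CPM in control, higher in every CUMS library and highest in CUMS replicate 3 (log2 fold change 1.15 ± 0.46, edgeR adjusted p = 0.262). Rgs11 had 17.03 ± 4.24 CPM in CUMS and 15.4 ± 0.711 CPM in control (edgeR adjusted p = 0.842). Rgs9, Rgs5, Rgs13 and Rgs20 had 30, 8, 4 and 3 reads over all libraries, and 7 of the 13 had none.

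Levels of different genes were compared per transcript length, in TPM (reads per base of the deposited gene length, scaled to one total per library). Over the 6 libraries the means ran from Rgs19 at 157 TPM through Rgs10 at 147, Rgs2 at 94.3, Rgs14 at 82.1, Rgs3 at 33.4, Rgs18 at 10.9 and Rgs1 at 5.76 to Rgs16 at 1.52 TPM. Rgs19 and Rgs10 overlapped within both groups, so these neighbours were not separated beyond their spread, and Rgs2 and Rgs14 overlapped within CUMS but not within control. Rgs2 had 73.2 ± 4.39 TPM in CUMS and 115 ± 22.8 TPM in control, and Rgs14 had 79.8 ± 13.5 TPM in CUMS and 84.4 ± 6.79 TPM in control. The deposited length of Rgs1, 6947 bases, equals its whole span on the chromosome, which lowers its TPM relative to a spliced length.

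The summed level of all 21 RGS genes was 533 ± 14.3 TPM in CUMS and 559.6 ± 49.99 TPM in control (SD, n = 3 each), and the groups overlapped. In CPM the 8 members summed to 494 to 510 in CUMS and 519 to 639 in control, without overlap, so the reading depends on the unit. Within the summed TPM the R4 subfamily held 20.9%, 24.2% and 22.2% in CUMS and 28.3%, 33.0% and 30.9% in control, without overlap. Most of that difference was Rgs2, which alone held 13.7 ± 0.46% in CUMS and 20.5 ± 2.34% in control. Rgs3 held 5.34 to 6.47% in CUMS and 5.86 to 6.56% in control, and Rgs18 1.06 to 2.84% and 2.20 to 2.44%. These 2 overlapped between groups, as did Rgs16. Rgs1, at 0.79 ± 0.16% in CUMS and 1.32 ± 0.20% in control, did not. Rgs19 held 31.4 ± 1.40% in CUMS and 26.1 ± 0.63% in control, again without overlap, and Rgs10 held 24.9 to 34.2% in CUMS and 24.5 to 27.9% in control. Shares add to a fixed total, so a lower share of Rgs2 raises those of other genes. These shares were not tested and are given as a description.

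**Figure D5:**
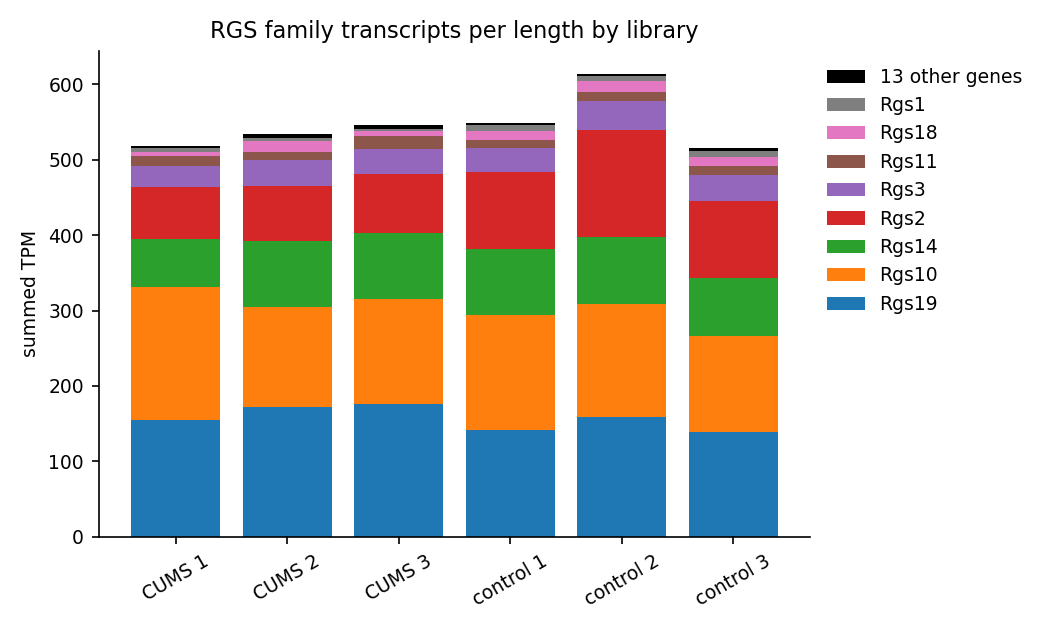
Summed TPM of the RGS family (y axis, from 0) in each library (x axis, CUMS then control), stacked by gene with the 13 least abundant genes in black. The bars are of similar height, 516 to 614 TPM, and the Rgs2 block is 68.9 to 77.7 TPM in CUMS and 102 to 142 TPM in control.

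The position of the genes in the genome was not used to choose them. Of the 21 RGS genes, 11 lie on chromosome 1 and no other chromosome held more than 1. Rgs2, Rgs13, Rgs1, Rgs21 and Rgs18, all R4 genes on the minus strand, are the only protein-coding genes of the deposited table within a stretch of 776 kb (mm10 chromosome 1, 143999338 to 144775435). The 3 of them that could be tested were the only genes of the stretch with enough reads, and their log2 fold changes were -0.70 for Rgs2, -0.82 for Rgs1 and -0.57 for Rgs18. Rgs13 had 4 reads, all in control replicate 2, and Rgs21 had none. Rgs16, also on chromosome 1 but outside the stretch, had a log2 fold change of -0.58 ± 1.24.

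The rest of the pathway gave few calls. Of 34 tested G protein-coupled receptors of T cells, 2 fell, none rose and 32 did not pass, with a median log2 fold change of -0.23. At an unadjusted p under 0.05 by edgeR, 11 of the 34 were lower and 1 higher, against 2147 of all 14054 genes either way. The calls in this list numbered 5 with no filter, 3 with the stricter filter, 4 with DESeq2 and 5 with limma voom, all lower. Cxcr4, the receptor for the chemokine CXCL12 whose signalling RGS proteins restrain, had 136, 168 and 116 CPM in CUMS and 224, 250.2 and 209 CPM in control (log2 fold change -0.70 ± 0.14, edgeR adjusted p = 0.0387). Ccr2, a chemokine receptor also found on monocytes, had 57.1, 56.8 and 44.2 CPM in CUMS and 84.7, 80.6 and 88.0 CPM in control (log2 fold change -0.68 ± 0.14, edgeR adjusted p = 0.0376). Neither passed when any 1 library was left out (edgeR adjusted p = 0.0627 to 0.207 for Cxcr4 and 0.0555 to 0.158 for Ccr2), although the groups did not overlap for either.

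No G protein subunit, receptor kinase, arrestin or effector of the pathway passed edgeR's main test, though DESeq2, limma voom or other edgeR settings called a few. The counts at an unadjusted p under 0.05 below stand against 2147 of all 14054 genes tested by edgeR. Of 9 alpha subunits, edgeR called 0, with 1 at an unadjusted p under 0.05, limma voom called 0 and DESeq2 called 1 as lower. Gnai2, the main Gi alpha subunit of lymphocytes and a substrate of most RGS proteins, had 742 ± 44.9 CPM in CUMS and 847 ± 88.1 CPM in control (edgeR adjusted p = 0.449). Gnai3 had 203 ± 18.2 CPM in CUMS and 257 ± 15.2 CPM in control, without overlap (log2 fold change -0.34 ± 0.11, edgeR adjusted p = 0.168), and Gna15, a Gq-class subunit of blood cells, had a log2 fold change of -0.52 ± 0.26. Of 8 beta and gamma subunits, edgeR called 0, with 3 at an unadjusted p under 0.05, limma voom called 0 and DESeq2 called 1 as higher. Gng2 had the smallest p, with 66.7 ± 5.49 CPM in CUMS and 48.5 ± 1.60 CPM in control (log2 fold change 0.46 ± 0.13, edgeR adjusted p = 0.103), and Gnb4 had -0.83 ± 0.365.

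Among 7 receptor kinases and arrestins, edgeR called 0, with 1 at an unadjusted p under 0.05, limma voom called 0 and DESeq2 called 1 as higher. The kinase Grk6 had 567 ± 16.9 CPM in CUMS and 453 ± 20.5 CPM in control (log2 fold change 0.32 ± 0.10, edgeR adjusted p = 0.129), and Grk2 had a log2 fold change of -0.20 ± 0.097. For 9 genes with a distant RGS-homology domain the counts were the same as for the kinases and arrestins by each of these tools. Arhgef1 had 1388 ± 214 CPM in CUMS and 1064 ± 69.8 CPM in control (log2 fold change 0.38 ± 0.12, edgeR adjusted p = 0.156), and Axin2 had -0.25 ± 0.15. Of 18 cyclic AMP and phospholipase C effectors, edgeR called 0, with 3 at an unadjusted p under 0.05, limma voom called 2 as higher, and DESeq2 called 1 as lower and 2 as higher. With edgeR, 1 was called higher with no filter, 1 with the stricter filter and 1 without CUMS replicate 1. The adenylyl cyclase Adcy7 had 661 ± 80.2 CPM in CUMS and 483 ± 9.02 CPM in control (log2 fold change 0.45 ± 0.11, edgeR adjusted p = 0.0717), and Plcb2 had 0.37 ± 0.11. Among other G protein regulators, edgeR, limma voom and DESeq2 called 0, with 0 of 6 at an unadjusted p under 0.05 in edgeR's test. These 6 ranged in log2 fold change from -0.22 to 0.64, with Ric8a at 0.22 ± 0.14 and Gpsm2 at -0.22 ± 0.18.

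Early response genes that cyclic AMP can induce, as it can Rgs2, had the most calls among the pathway lists in edgeR's main test. The monocyte and neutrophil markers and the CD4 T cell markers had more. Of 11 early response genes tested, 3 fell, none rose and 8 did not pass. All 11 log2 fold changes were negative, with a median of -0.61. At an unadjusted p under 0.05 by edgeR, 7 of the 11 were lower and none higher. With no filter and with DESeq2 the list had 5 calls, and with limma voom 4, all lower. The receptor list had as many calls with median-of-ratios size factors, no filter, the stricter filter and the replicate block. With limma voom it had more. The 3 early response genes called in the main test were Fos, described above, Fosl2, another AP-1 subunit, and Sik1, a kinase of the CREB pathway. Fosl2 had 65.0, 85.4 and 82.6 CPM in CUMS and 141, 203 and 129 CPM in control (log2 fold change -1.02 ± 0.18, edgeR adjusted p = 0.0229). Sik1 had 22.4, 22.7 and 20.3 CPM in CUMS and 38.1, 51.4 and 34.4 CPM in control (log2 fold change -0.92 ± 0.18, edgeR adjusted p = 0.0378). As with Rgs2, control replicate 2 was the highest library for all 3. With the monocyte and neutrophil level as a covariate the list's median was -0.18, and with CUMS replicate 1 alone against the controls it was -0.80. Leaving out any 1 library left 0 to 2 calls in this list, and Sik1 then passed in none.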

How the data were processed

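Liver CD8+ T cell mRNA was measured in 3 CUMS and 3 control libraries. The deposited table holds unnormalized whole-number read counts and a length in bases for each gene. The submitters' processing notes name mm10 as the build, and DESeq2 1.20.0, featureCounts 1.5.0-p3, HISAT2 2.0.5 and fastp as tools. Annotation release and strand setting: not given in the sources used here. Reads of overlapping opposite-strand genes therefore cannot be told apart. GENCODE M21 gave the same coordinates for all 8 genes.

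Testing used edgeR 4.0.16 (R 4.3.3) with filterByExpr defaults, TMM factors and a two-sided quasi-likelihood F test (legacy glmQLFit) of CUMS against control, with Benjamini-Hochberg adjustment. Each SE is the log2 fold change divided by the root of F, and intervals are at the 95% level. Log2 CPM had a prior count of 2. Alternatives were DESeq2 1.42.0, limma 3.58.1 (voom with sample weights), other scalings, no filter, a stricter filter (1 CPM in 3 libraries, mean count 50), a replicate block, libraries left out and a marker covariate. The fit was tested on simulated data. The limit for a count of 0 covers counting error only. Library pairs within a group differed by a chi-square per gene of 10.03 to 35.7, above counting noise.

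The 8 genes, the gene lists, tests and alternatives were chosen with earlier results of these data known. Named are the 8 genes, called genes of the pathway lists or else up to 2 with the smallest p, up to 3 markers a list by CPM, and the 5 genes nearest in profile to a called member. The full CD8 T cell marker list, Foxp3, Pf4, Ppbp, Rgs11, Rgs12 and Gnai2 were named after their values were seen. Figures were drawn with matplotlib 3.10.9.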

Additional observations from a re-analysis of the deposited data

How the results depend on the processing

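Rgs2 was the 1 call among the 8 RGS genes, and it stayed past the threshold with median-of-ratios size factors, no filter, the stricter filter, DESeq2 and voom. The count was 0 with library size alone, the replicate block, CUMS replicates 2 and 3 both left out, and the marker covariate, and 0 to 0 over the 6 leave-one-out fits. Over all genes the count was 184, against 704 with no filter, 316 with the stricter filter, 623 with DESeq2, 497 with voom, 71 with the replicate block, 7 with CUMS replicates 2 and 3 both left out, 0 with the marker covariate (edgeR, 151 at an unadjusted p under 0.05), and 9 to 178 over the leave-one-out fits, with 9 without CUMS replicate 2, 19 without control replicate 2, 46 without control replicate 3, 62 without control replicate 1 and 92 without CUMS replicate 1.

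The log2 fold change of Rgs10 turned negative with voom (-0.096) and ranged from -0.20 (without CUMS replicate 1) to 0.14 over the leave-one-out fits, with -0.079 without control replicate 3. The marker covariate turned the sign of Rgs2 (0.077), Rgs3 (0.15), Rgs14 (0.028), Fos (0.076), Nudt4 (0.12), Anxa1 (0.155) and Msrb1 (0.20). The cause was not tested for these genes. S100a9 (0.099) and Clec4e (0.095) also turned, but both are among the markers averaged to make the covariate. A loss of their group difference is therefore built into that fit.

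The replicate numbers did not pair the libraries: deviations of same-numbered libraries correlated at -0.037 to 0.014, and the replicate block put Rgs2 at -0.68 (edgeR adjusted p = 0.0948). Rgs16, with 0 to 33 reads a library, ranged from -2.36 to -0.0097 over the settings. Rgs18 ranged from -1.13 to -0.36, with -1.12 without CUMS replicate 2. The fit with both CUMS replicates 2 and 3 left out has 1 CUMS library, assumed to vary like the controls.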
